A study of Mus musculus with 8 samples.

Results

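The genes described here are 9 genes of antigen presentation by MHC class II molecules: H2-Aa, H2-Ab1, H2-Eb1, H2-DMa, H2-Oa, H2-Ob, Cd74, Ciita and Cd86. They were taken by symbol from the platform annotation, among 18193 genes with a row in the expression table, and all 9 had a row. Each was measured by the probe sets that carry its symbol alone, 18 in all, and is represented by whichever of them was brightest on average. The study profiled total RNA on 8 Affymetrix arrays from a mouse leukemia driven by MLL-AF9, an oncogenic fusion found in acute leukemia, to follow gene expression under a drug and under RNA interference. The drug, EPZ4777, inhibits the histone methyltransferase DOT1L. All cells grew in IMDM with 15% fetal bovine serum and the cytokines SCF at 20 ng/ml, IL-3 at 10 ng/ml and IL-6 at 10 ng/ml.

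There were 4 groups of 2 arrays. The first held cells with a hairpin against luciferase (shLUC), which has no mouse target, after 6 days in 3 µM EPZ4777, and the second held shLUC cells in DMSO. The third held cells with a hairpin labelled shSirt1, against the deacetylase gene Sirt1, after 21 days in 3 µM EPZ4777, and the fourth held cells labelled shSirt1 in DMSO. Sample titles also carry codes, of which A4 and D11 belong to shLUC and A1 and A5 to shSirt1, with 1 EPZ4777 array and 1 DMSO array per code. Neither the meaning of the codes nor the number of cultures behind a group is stated, so a p-value here measures only the spread between these samples, and that spread may be technical. No time is stated for the DMSO arrays. Hairpin and days in drug changed together between the arms and cannot be told apart.

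Values are log2 of the deposited RMA intensities, so 1 unit is a doubling, and the median over all genes lay between 6.07 and 6.20 on the 8 arrays. In the cells labelled shSirt1, Sirt1 was at 8.85 on A1 and 9.73 on A5 in EPZ4777 and at 8.70 on A1 and 9.54 on A5 in DMSO, while the 4 shLUC arrays lay between 9.44 and 9.83. The A5 arrays were therefore not lower, and the cells are called "labelled shSirt1" throughout. Meis1, a target of MLL fusions, fell in EPZ4777 (log2 difference -3.32 ± 0.31 over both arms, limma adjusted p = 0.00713). The array of code A1 in DMSO stood apart in part of 8 listed stroma and endothelium markers. Col3a1, a fibrillar collagen, was at 6.92 there and at 3.13 or lower on the other 7 arrays. Dcn, a matrix proteoglycan, was at 7.27 against 4.79 or lower. Col1a2 (6.74 against 5.39 or lower) and Cdh5 (4.67 against 3.95 or lower) were also highest there. Col1a1 (4.20), Pdgfrb (5.22), Pecam1 (6.91) and Epcam (6.51) lay within the range of the other arrays. Col3a1 and Dcn were picked out after their values were seen.

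MHC class II molecules are heterodimers of an alpha and a beta chain that show peptides from the endosome to CD4 T cells. They are made mainly by dendritic cells, B cells and macrophages, and by other cells after interferon gamma. H2-Aa and H2-Ab1 encode the chains of I-A, and H2-Eb1 encodes the beta chain of I-E. Cd74, the invariant chain, fills the groove until proteases cut it down to a fragment, which the H2-DM dimer, with H2-DMa as its alpha chain, exchanges for other peptides, while the H2-O dimer of H2-Oa and H2-Ob inhibits H2-DM. Ciita is the coactivator that class II promoters need, and it has no DNA contact of its own but binds the factors RFX, CREB and NF-Y on the promoter's X and Y boxes. Cd86 encodes a costimulatory ligand of the T cell receptor CD28.

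Promoter windows from 250 bases before to 50 bases after the annotated start, from RefSeq on GRCm38.p6, were read for 5 of the 9 genes, in 6 windows because H2-DMa had 2. H2-Ab1, Ciita and Cd86 had no window, and Cd74, on another chromosome, was left out of this reading. The Y box letters CCAAT, searched on both strands, were in 5 of the 6 windows and in 37.41% of 32851 windows of the whole table. An X box core, CCNAGNNAC, was in 3 of the 6 and in 17.3% of all. Reading the windows then led to a joint pattern, GCAAC followed on the same strand by ATTGG with first letters 28 to 36 bases apart. ATTGG is CCAAT read on the other strand, and GCAAC can overlap the end of the X box core. The pattern was chosen after these sequences were seen, so its share of 0.4292% of all windows (141) is a description. It was in the windows of H2-Oa, H2-Ob, H2-Aa and H2-Eb1 and in neither window of H2-DMa. The 4 stretches are shown so that the promoter letters of these genes can be read beside their array values. They run 5′ to 3′ on the gene's own strand with the GCAAC and ATTGG letters in capitals. In order the stretches are at chr17:34092283-34092360 on the plus strand, chr17:34238798-34238872 on the plus strand, chr17:34287847-34287924 on the minus strand and chr17:34305756-34305832 on the plus strand.
H2-Oa: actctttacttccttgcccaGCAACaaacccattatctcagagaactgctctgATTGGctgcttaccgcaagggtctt
H2-Ob: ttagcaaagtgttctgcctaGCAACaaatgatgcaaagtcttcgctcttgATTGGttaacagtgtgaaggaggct
H2-Aa: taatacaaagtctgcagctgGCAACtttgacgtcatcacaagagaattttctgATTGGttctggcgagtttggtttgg
H2-Eb1: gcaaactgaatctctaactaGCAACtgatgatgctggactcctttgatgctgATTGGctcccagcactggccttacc
The GCAAC letters begin 76, 87, 81 and 91 bases upstream of the annotated starts, in the same order, and lie 33, 30, 33 and 32 bases from the ATTGG letters. All 4 stretches lie upstream of the start.

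As an average over both hairpin arms, 3 of the 9 genes were lower under EPZ4777, beside 6.00% of all genes. The other 6 did not pass the test, and in each arm by itself only H2-DMa passed. H2-DMa and H2-Ob, chains of the peptide-editing and the inhibitory dimer, and H2-Ab1, the I-A beta chain, fell by a factor of 2.02 to 2.80 as an average over both hairpin arms. H2-Aa, the partner of H2-Ab1, H2-Oa, the partner of H2-Ob, and Ciita differed by 0.15 log2 or less in that average. The tests are limma fits over all 18193 genes, two-sided, with Benjamini-Hochberg adjusted p under 0.05 as the threshold, and ± after a log2 difference is its standard error (n = 2 arrays per group). With 2 arrays per group all 4 groups share 1 estimate of the spread.

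**Figure D1:**
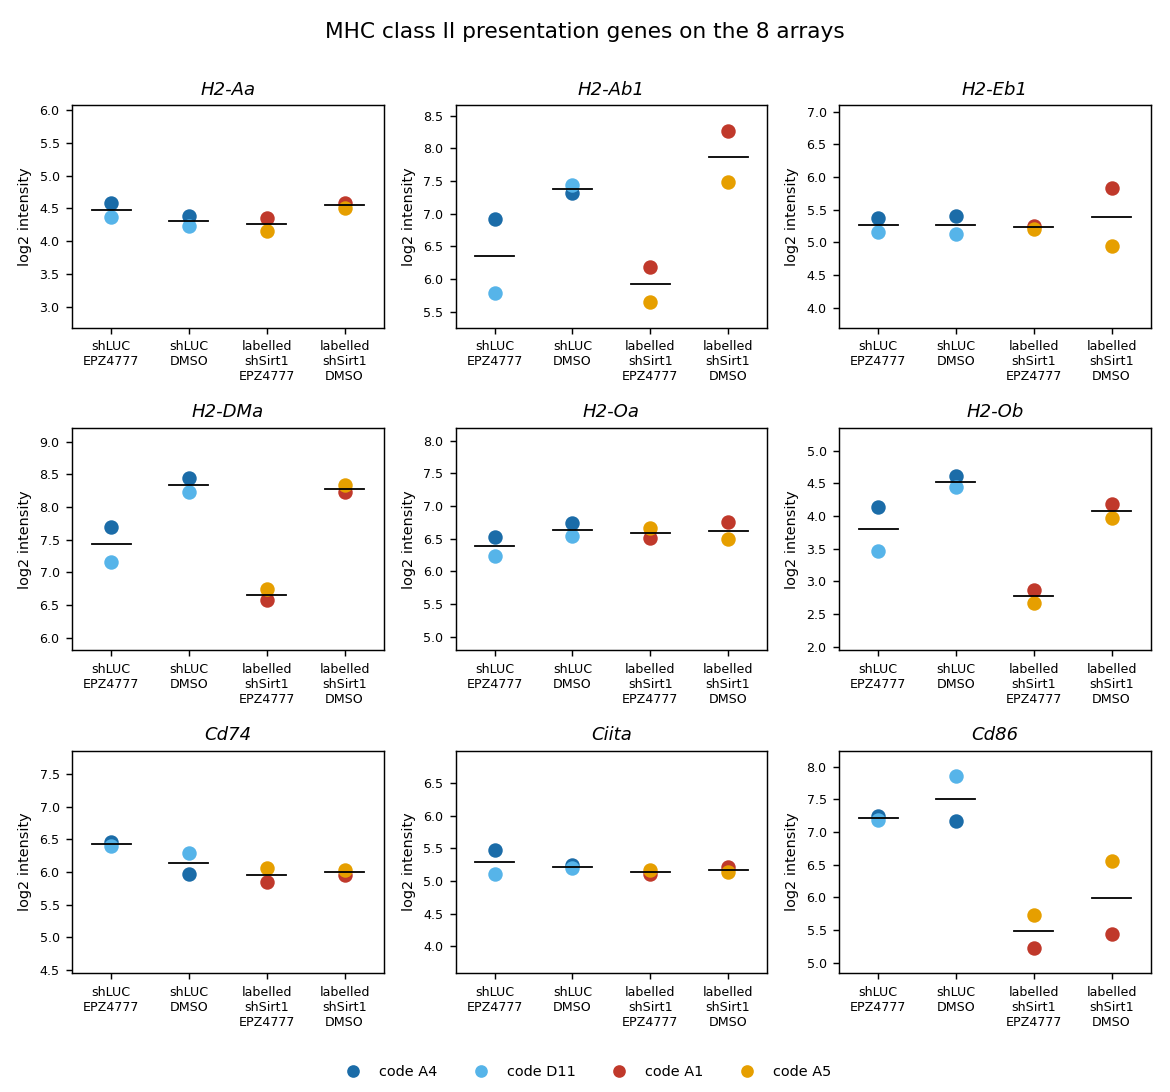
Log2 RMA intensity (y axis) of the 9 class II presentation genes on each of the 8 arrays, by group (x axis, EPZ4777 left of DMSO within each hairpin arm), with points coloured by code, a line at each group mean and the same y span of 3.4 log2 units in every panel. The EPZ4777 points of H2-Ab1, H2-DMa and H2-Ob lie below the DMSO points of the same arm, while Cd86 differs more by hairpin label than by drug.

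H2-DMa was at 7.70 (A4) and 7.16 (D11) in shLUC cells with EPZ4777, against 8.44 (A4) and 8.22 (D11) in shLUC cells with DMSO. In cells labelled shSirt1 it was at 6.57 (A1) and 6.74 (A5) with EPZ4777, against 8.22 (A1) and 8.33 (A5) with DMSO. All 4 EPZ4777 arrays were lower than all 4 DMSO arrays, the 2 arrays labelled shSirt1 in EPZ4777 were the lowest, and the DMSO arrays of both hairpins overlapped. The difference was -0.90 ± 0.19 at 6 days in shLUC cells (adjusted p = 0.0496) and -1.62 ± 0.19 at 21 days in cells labelled shSirt1 (adjusted p = 0.0399), a level 1.87 and 3.07 times lower. H2-DMa was the only one of the 9 past the threshold in either arm, where 2.36% of all genes were called lower in the shLUC arm and 0.181% in the arm labelled shSirt1. Averaged over both arms the difference was -1.26 ± 0.13 (adjusted p = 0.00957). The shLUC call stood at the edge of the threshold and was kept in 1 of 8 fits with 1 array left out (adjusted p up to 0.272), the call in cells labelled shSirt1 in 3 of 8 (up to 0.146) and the average in 6 of 8 (up to 0.0605). A second, dimmer probe set of H2-DMa moved the same way, at -0.50 ± 0.16 and -0.58 ± 0.16 in the arms (adjusted p = 0.134 and 0.227 over all probe sets) and -0.54 ± 0.11 in the average (adjusted p = 0.0368).

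H2-DMb1 and H2-DMb2 encode alternative beta chains of H2-DM, and 2 probe sets are annotated to both, so they stand for neither gene alone. One measured 7.27 (A4) and 6.47 (D11) in shLUC cells with EPZ4777, against 7.39 and 6.85 with DMSO, and 6.07 (A1) and 5.79 (A5) in cells labelled shSirt1 with EPZ4777, against 7.08 and 6.64 with DMSO. Each code was lower in EPZ4777, but the averages of -0.59 ± 0.21 and, for the other probe set, -0.58 ± 0.18 missed the threshold (adjusted p = 0.143 and 0.103 over all probe sets). H2-DMb2 alone, on a probe set of its own, measured 0.069 ± 0.084 (adjusted p = 0.667).

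H2-Ob was at 4.14 (A4) and 3.47 (D11) in shLUC cells with EPZ4777, against 4.61 (A4) and 4.44 (D11) with DMSO. The arrays labelled shSirt1 were at 2.87 (A1) and 2.67 (A5) with EPZ4777, against 4.18 (A1) and 3.97 (A5) with DMSO. Each code was lower in EPZ4777 and the groups did not overlap within an arm, although A4 in EPZ4777 lay above A5 in DMSO. The averaged difference of -1.01 ± 0.16 passed (adjusted p = 0.0173), and the arms measured -0.72 ± 0.22 (adjusted p = 0.112) and -1.31 ± 0.22 (adjusted p = 0.0752). The averaged call was kept in 5 of 8 fits with 1 array left out (adjusted p up to 0.0884). This probe set is dim, at percentile 17.6 of the mean intensities of all genes, and RMA can compress differences at that level. Whether its signal lay above background was not tested. One further probe set is annotated to H2-Ob and to another gene and was not counted for H2-Ob. It was at 5.06 (A4) and 4.64 (D11) in shLUC cells with EPZ4777, against 4.94 and 4.92 with DMSO, and its average of -0.062 ± 0.11 did not pass, so the probe sets that match H2-Ob disagree.

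H2-Oa, the alpha chain of the same inhibitor, was at 6.53 (A4) and 6.23 (D11) in shLUC cells with EPZ4777, against 6.74 and 6.54 with DMSO. Cells labelled shSirt1 had 6.52 (A1) and 6.66 (A5) with EPZ4777, against 6.75 and 6.49 with DMSO. The groups overlapped in cells labelled shSirt1, and all 8 values lay within 0.52 log2. The averaged difference was -0.15 ± 0.11 (adjusted p = 0.460).

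Among the classical chains, H2-Ab1 was at 6.91 (A4) and 5.79 (D11) in shLUC cells with EPZ4777, against 7.31 (A4) and 7.43 (D11) with DMSO. In cells labelled shSirt1 it was at 6.19 (A1) and 5.65 (A5) with EPZ4777, against 8.26 (A1) and 7.49 (A5) with DMSO. All EPZ4777 arrays were lower than all DMSO arrays, but the size differed between codes in the shLUC arm, at -0.40 in A4 and -1.64 in D11. The averaged difference of -1.49 ± 0.28 passed (adjusted p = 0.0264), and the arms measured -1.02 ± 0.40 (adjusted p = 0.200) and -1.95 ± 0.40 (adjusted p = 0.107). The averaged call was kept in 3 of 8 fits with 1 array left out (adjusted p up to 0.104). All 3 probe sets of H2-Ab1 were lower in both arms, and in the average 2 passed (-1.49 ± 0.28 and -1.06 ± 0.19) while the dimmest measured -0.64 ± 0.20 (adjusted p = 0.0989 over all probe sets). The highest H2-Ab1 value belonged to A1 in DMSO, the array with high Col3a1 and Dcn. The part of such transcripts in the result was not tested. Without both A1 arrays, an alternative chosen after the data were seen, the averages were -1.43 for H2-Ab1 (adjusted p = 0.0569), -1.01 for H2-Ob (adjusted p = 0.0512) and -1.25 for H2-DMa (adjusted p = 0.0313).

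H2-Aa, which encodes the other chain of I-A, was at 4.59 (A4) and 4.37 (D11) in shLUC cells with EPZ4777, against 4.39 and 4.23 with DMSO. The cells labelled shSirt1 were at 4.35 (A1) and 4.16 (A5) with EPZ4777, against 4.59 and 4.51 with DMSO. The averaged difference was -0.062 ± 0.091 (adjusted p = 0.727), and all 8 arrays lay within 0.43 log2. None of the 4 probe sets of H2-Aa passed in any drug comparison, and 1 of them read 5.34 on A1 in DMSO and 3.77 or lower on the other 7 arrays. The H2-Aa probe set used is dim, at percentile 27.1 of the mean intensities of all genes, while that of H2-Ab1 stood at percentile 56.5, and a difference between these genes was not tested. The names of both probe sets carry suffixes for possible cross-hybridisation.

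H2-Eb1 was at 5.37 (A4) and 5.17 (D11) in shLUC cells with EPZ4777, against 5.40 and 5.13 with DMSO. Cells labelled shSirt1 had 5.26 (A1) and 5.20 (A5) with EPZ4777, against 5.84 and 4.95 with DMSO. The widest pair was the DMSO one labelled shSirt1, with A1 on top, and the averaged difference of -0.081 ± 0.19 did not pass (adjusted p = 0.838).

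Cd74, the invariant chain, was at 6.46 (A4) and 6.40 (D11) in shLUC cells with EPZ4777, against 5.97 and 6.29 with DMSO. The cells labelled shSirt1 were at 5.85 (A1) and 6.06 (A5) with EPZ4777, against 5.95 and 6.03 with DMSO. The shLUC groups did not overlap and those labelled shSirt1 did, and the arms measured 0.30 ± 0.14 (adjusted p = 0.282) and -0.040 ± 0.14 (adjusted p = 0.915).

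Ciita was at 5.48 (A4) and 5.11 (D11) in shLUC cells with EPZ4777, against 5.25 and 5.19 with DMSO. Cells labelled shSirt1 had 5.11 (A1) and 5.17 (A5) with EPZ4777, against 5.21 and 5.14 with DMSO. All 8 values lay within 0.37 log2 and overlapped in both arms. The averaged difference was 0.017 ± 0.099 (adjusted p = 0.940), its sign turned after quantile normalization and after centring of the arrays, and the other 2 probe sets of Ciita did not pass either.

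Cd86 was at 7.25 (A4) and 7.19 (D11) in shLUC cells with EPZ4777, against 7.17 and 7.86 with DMSO. Cells labelled shSirt1 had 5.23 (A1) and 5.73 (A5) with EPZ4777, against 5.45 and 6.55 with DMSO. Drug groups overlapped in both arms, and the averaged difference was -0.41 ± 0.27 (adjusted p = 0.401).

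**Figure D2:**
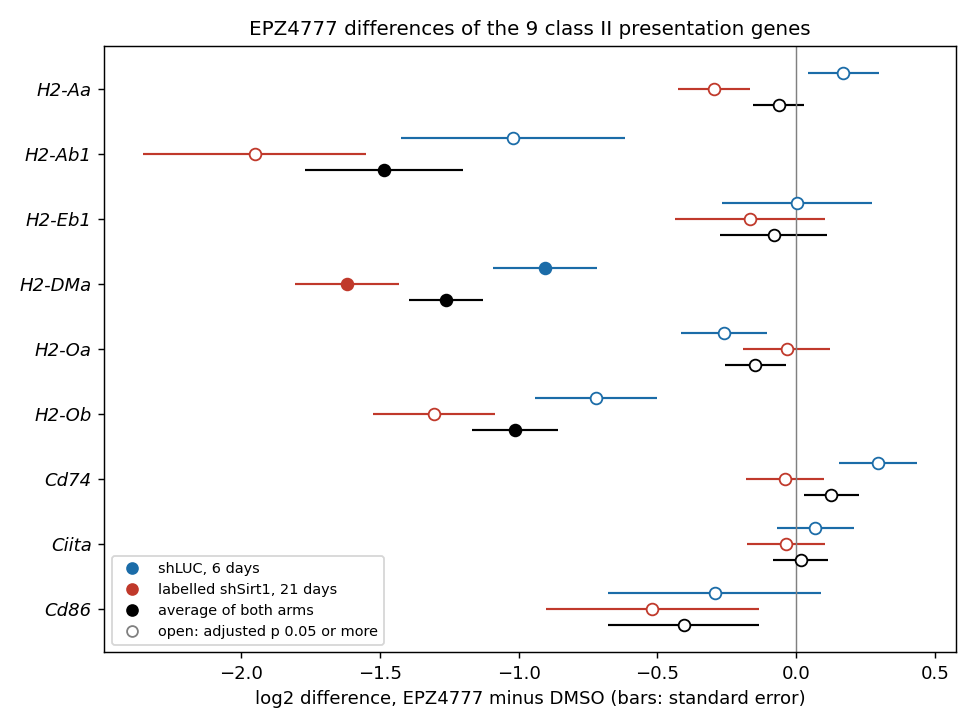
Log2 difference, EPZ4777 minus DMSO (x axis, bars for the standard error), of the 9 genes (y axis) in shLUC cells at 6 days, in cells labelled shSirt1 at 21 days and averaged over both arms. Filled points have an adjusted p under 0.05: H2-DMa in all 3 comparisons, H2-Ab1 and H2-Ob in the average.

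In the averaged comparison 3 of the 9 genes were lower and 0 higher, beside 6.00% of all genes called lower and 4.88% called higher. The median difference of the 9 was -0.15, against 0.0051 over all genes, and it was -0.83 over the 4 of the 9 kept when genes below the median level were left out. In the shLUC arm 1 was lower and 0 higher, where 1.62% of all genes were called higher, and the median was -0.26. In the arm labelled shSirt1, 1 was lower and 0 higher, where 0.214% of all genes were called higher, the median was -0.30, and all 9 differences were negative. When the code shared in the titles entered as a fixed block, the genes called lower were 2 in the shLUC arm (H2-DMa and H2-Ob), 3 in cells labelled shSirt1 and 3 in the average (H2-Ab1, H2-DMa and H2-Ob), where that fit called 3.61%, 0.907% and 8.59% of all genes lower.

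The drug differences of the arms were compared directly, as the value at 21 days in cells labelled shSirt1 minus the value at 6 days in shLUC cells. None of the 9 passed, 2 had an unadjusted p under 0.05 (H2-Aa and H2-DMa), and limma called 0% of 18193 genes there, with 1221 at an unadjusted p under 0.05. H2-DMa measured -0.71 ± 0.27 (adjusted p = 0.695), H2-Ab1 -0.93 ± 0.57 (adjusted p = 0.812) and H2-Ob -0.58 ± 0.31 (adjusted p = 0.789). The larger fold in cells labelled shSirt1 was thus not shown to differ from that in shLUC cells.

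Between the hairpin labels, cells labelled shSirt1 and shLUC cells were compared in each medium. Both comparisons use the same arrays as the drug comparisons and are not independent of them. In EPZ4777 0 of the 9 passed, while 0.242% of all genes were called lower and 0.0660% higher in cells labelled shSirt1, and 4 of the 9 had an unadjusted p under 0.05, all lower. Cd86 measured -1.74 ± 0.38 (adjusted p = 0.128), H2-Ob -1.03 ± 0.22 (adjusted p = 0.122), H2-DMa -0.77 ± 0.19 (adjusted p = 0.155) and Cd74 -0.47 ± 0.14 (adjusted p = 0.210). In DMSO 0 of the 9 and 0% of all genes passed (985 genes at an unadjusted p under 0.05), and Cd86, the only one of the 9 under 0.05 unadjusted, measured -1.51 ± 0.38 (adjusted p = 0.882). All 4 arrays labelled shSirt1 were lower in Cd86 than all 4 shLUC arrays, and a second probe set of Cd86 gave the same order, from 4.11 to 6.08 in cells labelled shSirt1 and from 6.66 to 7.48 in shLUC cells. Without both A5 arrays the DMSO difference was -2.07 (adjusted p = 0.0463), so its call depended on which code was entered.

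Between the hairpin labels, part of the monocyte and macrophage genes were lower in cells labelled shSirt1, the direction of the Cd86 difference, which did not pass. In EPZ4777, 5 of 14 measured markers of these cells were lower in cells labelled shSirt1 and 0 higher. Over all genes 0.242% were called lower and 0.0660% higher there. Among the 5 were Mmp12, the macrophage elastase (-3.84 ± 0.49), C1qb, a complement C1q chain (-3.77 ± 0.28), Msr1, a scavenger receptor (-3.24 ± 0.36), and Ccr2, a chemokine receptor (-2.70 ± 0.28). The mean log2 level of the 14 was 5.45 to 5.82 in cells labelled shSirt1 with EPZ4777 and 7.61 to 8.13 in shLUC cells with EPZ4777. In DMSO it was 5.66 to 6.17 in cells labelled shSirt1 and 6.50 to 6.75 in shLUC cells. The drug comparison differed: in the shLUC arm 6 of the 14 rose and 0 fell, beside 1.62% and 2.36% of all genes. Cd86 measured -0.29 ± 0.38 in that arm (limma adjusted p = 0.748). Fewer cells of a type and less RNA per cell cannot be told apart in bulk RNA. The part of monocytes and macrophages in the Cd86 values was not tested.

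Other cell types that carry class II molecules were looked for with lists of their markers. Of 11 measured B cell markers 1 rose in the averaged drug comparison, Cd22 (0.36 ± 0.081), and 0 fell. In that comparison 4.88% of all genes rose and 6.00% fell. Ighm, the immunoglobulin mu heavy chain, was at 11.09 (A4) and 9.92 (D11) in shLUC cells with EPZ4777, against 11.39 and 10.85 with DMSO, and at 11.43 (A1) and 8.92 (A5) in cells labelled shSirt1 with EPZ4777, against 12.12 and 10.98 with DMSO. It was lower in EPZ4777 in each code and highest on A1 in DMSO, like H2-Ab1, but its average of -0.996 ± 0.58 did not pass (adjusted p = 0.325), and the other 10 markers lay between 3.24 and 6.04. The part of B cell transcripts in the class II values was not tested. Their mean log2 level was 4.63 to 4.89 in shLUC cells with EPZ4777 and 4.91 to 4.94 with DMSO, and 4.67 to 4.75 in cells labelled shSirt1 with EPZ4777 and 4.81 to 4.82 with DMSO. Of 14 dendritic cell markers 1 rose, the endocytic receptor Ly75 (2.08 ± 0.19), and 1 fell, Tcf4, a transcription factor of plasmacytoid dendritic cells (-1.02 ± 0.13). The mean level of the dendritic markers was 5.61 to 5.78 in shLUC cells with EPZ4777 and 5.58 to 5.66 with DMSO, and 5.57 to 5.61 in cells labelled shSirt1 with EPZ4777 and 5.45 to 5.51 with DMSO. Itgax, which encodes CD11c, lay between 3.96 and 4.77 on all arrays, and none of 7 T and NK cell markers passed. Of 12 listed myeloid leukemia and progenitor markers 2 rose in the averaged drug comparison, Itgam (1.39 ± 0.31) and Fcgr3 (0.54 ± 0.096). The 1 that fell was Meis1 (-3.32 ± 0.31). Over all genes 4.88% rose and 6.00% fell there. Among the 12, the granule enzyme Mpo lay between 12.75 and 13.56. Ptprc, the pan-leukocyte antigen CD45, lay between 11.54 and 12.63, but Cd34, a progenitor antigen, only between 2.43 and 3.39.

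Neutrophil genes moved opposite to the 3 class II genes that fell. Of 11 measured neutrophil markers 7 rose and 0 fell in the averaged comparison (4.88% and 6.00% of all genes), among them Cd177, a surface protein (4.18 ± 0.51), Lcn2, lipocalin-2 (3.53 ± 0.44), the cathelicidin Camp (3.32 ± 0.82) and Olfm4, a granule protein (3.24 ± 0.35). Their mean log2 level was 10.77 to 12.32 in shLUC cells with EPZ4777 and 9.08 to 9.61 with DMSO, and 10.60 to 12.28 in cells labelled shSirt1 with EPZ4777 and 7.76 to 9.26 with DMSO. Of the 14 monocyte and macrophage markers 4 rose and 1, Ccr2, fell in that average, which joins unlike arms. In the shLUC arm 6 rose and 0 fell (median 0.80), beside 1.62% and 2.36% of all genes. In the arm labelled shSirt1 0 rose and 1, Ccr2, fell (median -0.24, 10 of 14 negative), beside 0.214% and 0.181% of all genes. C1qb, among those that rose in the average, measured -0.13 in the arm labelled shSirt1. The part of such shifts in the class II values was not tested.

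Of the rest of the class II pathway, 22 of 23 listed genes had a row, H2-DMb1 being the one without. In the averaged comparison 1 rose, Cd80, the other ligand of CD28 (0.86 ± 0.16, adjusted p = 0.0249), and the other 21 did not pass (0 fell). The median of the 22 was 0.069, and over all genes 4.88% rose and 6.00% fell. Cd80 was at 6.37 (A4) and 6.80 (D11) in shLUC cells with EPZ4777, against 5.51 and 6.04 with DMSO, and at 6.03 (A1) and 6.20 (A5) in cells labelled shSirt1 with EPZ4777, against 5.04 and 5.36 with DMSO. It was higher in EPZ4777 in each code, whereas Cd86 was not. In shLUC cells Lgmn, an asparaginyl protease of the endosome, was the only one to rise (1.97 ± 0.36, adjusted p = 0.0396), and in cells labelled shSirt1 none passed (4 at an unadjusted p under 0.05). In EPZ4777 Lgmn (-2.95 ± 0.36) and Ctss, cathepsin S, which trims the invariant chain (-3.26 ± 0.29), were lower in cells labelled shSirt1 than in shLUC cells. The subunits of RFX, which binds the X box, did not pass: Rfx5 measured -0.21 ± 0.11, Rfxank -0.16 ± 0.076 and Rfxap -0.023 ± 0.19 in the averaged drug comparison.

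Among 22 measured genes of interferon gamma signalling and of Ciita regulation, 1 rose and 1 fell in the averaged comparison. The shares over all genes were 4.88% and 6.00%. Irf8, an interferon regulatory factor that directs the monocyte and dendritic cell lineages, was at 7.57 (A4) and 7.02 (D11) in shLUC cells with EPZ4777, against 9.16 and 9.40 with DMSO. The arrays labelled shSirt1 were at 5.95 (A1) and 4.98 (A5) with EPZ4777, against 8.90 and 8.53 with DMSO. It was lower in EPZ4777 in each code and fell in the shLUC arm (-1.99 ± 0.33, adjusted p = 0.0355), in the arm labelled shSirt1 (-3.25 ± 0.33, adjusted p = 0.0385) and in the average (-2.62 ± 0.24, adjusted p = 0.00713). Jak2, a kinase of the interferon gamma receptor, rose in the average (0.85 ± 0.13) and in the shLUC arm (0.92 ± 0.18). Spi1, which encodes the myeloid factor PU.1, measured 0.49 ± 0.25 in the average (adjusted p = 0.257).

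MHC class I molecules show peptides that the proteasome makes and that the TAP transporter brings into the endoplasmic reticulum. Of 22 listed class I genes 16 had a row, and in the averaged comparison 5 fell, 1 rose and 10 did not pass in the class I list, whose median was -0.23. Over all genes 6.00% fell and 4.88% rose. The 5 were Psmb8 (-1.61 ± 0.26), Psmb9 (-1.01 ± 0.16) and Psmb10 (-0.90 ± 0.078), the catalytic subunits of the immunoproteasome, and Tap1 (-0.94 ± 0.13) and Tap2 (-1.01 ± 0.13), the subunits of the transporter. Psmb8 was at 10.27 (A4) and 9.67 (D11) in shLUC cells with EPZ4777, against 11.29 and 11.18 with DMSO, and at 9.41 (A1) and 8.55 (A5) in cells labelled shSirt1 with EPZ4777, against 11.31 and 10.55 with DMSO. It was lower in EPZ4777 in each code. B2m, the shared light chain of class I molecules, rose (0.48 ± 0.11), and the heavy chain genes H2-K1 (0.15 ± 0.12) and H2-D1 (0.14 ± 0.10) did not pass. In single arms Psmb10 fell and B2m rose in shLUC cells, and Tap2 fell in cells labelled shSirt1.

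**Figure D3:**
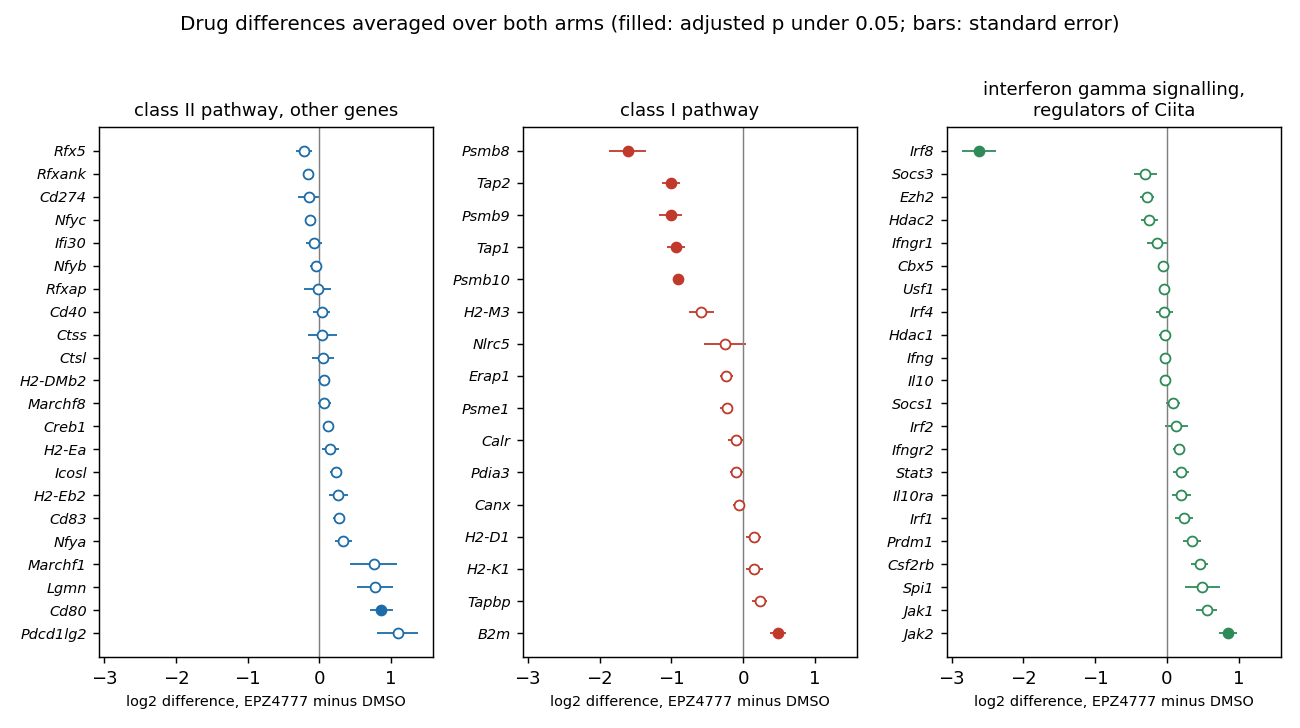
Log2 difference, EPZ4777 minus DMSO averaged over both arms (x axis, bars for the standard error), of the measured genes (y axis, sorted) of the class II pathway beyond the 9, of the class I pathway and of interferon gamma signalling and Ciita regulation. Filled points have an adjusted p under 0.05: Cd80 in the first panel, Psmb8, Tap2, Psmb9, Tap1, Psmb10 and B2m in the second, Irf8 and Jak2 in the third.

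Except for Psmb10, the class I genes that fell are neighbours of the class II genes on chromosome 17. In the RefSeq order of GRCm38.p6, 16 genes lie from H2-Oa to H2-Ea, a window drawn after the values were seen, and 14 of them had a row. In the averaged comparison 7 of the 14 fell, 0 rose and 7 did not pass, beside 6.00% of all genes called lower and 4.88% called higher. The 7 were H2-DMa, Psmb9, Tap1, Psmb8, Tap2, H2-Ob and H2-Ab1, which follow each other in that order with H2-DMb2, H2-DMb1 and 1 unmeasured gene between them. The 2 genes before H2-DMa, H2-Oa and Brd2, did not pass, nor did the 4 after H2-Ab1, which are H2-Aa, H2-Eb1, H2-Eb2 and H2-Ea. Brd2, a bromodomain protein with no known role in presentation, measured -0.16 ± 0.070 (adjusted p = 0.190), and H2-Ea, which RefSeq lists as a transcribed pseudogene on this assembly, 0.15 ± 0.12 (adjusted p = 0.476). In single arms 1 of the 14 fell in the shLUC arm and 2 in the arm labelled shSirt1, beside 2.36% and 0.181% of all genes.

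**Figure D4:**
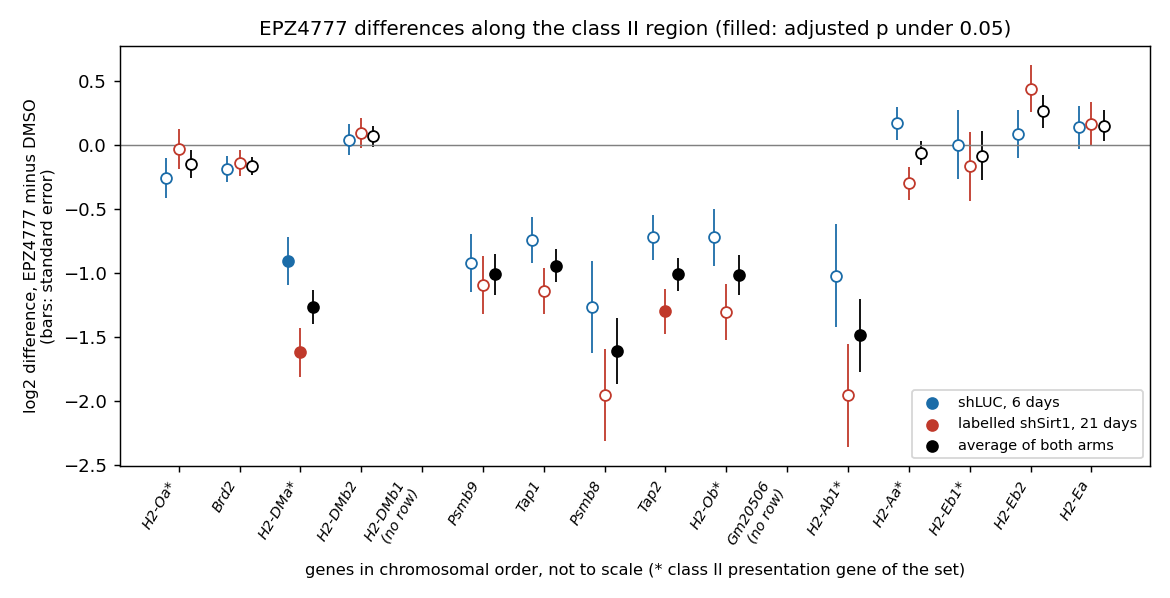
Log2 difference, EPZ4777 minus DMSO (y axis, bars for the standard error), of the genes of the class II region in chromosomal order (x axis, not to scale), in shLUC cells at 6 days, in cells labelled shSirt1 at 21 days and averaged. Filled points have an adjusted p under 0.05: 7 genes from H2-DMa to H2-Ab1 in the average, H2-DMa in shLUC cells, and H2-DMa and Tap2 in cells labelled shSirt1.

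Read against the promoters shown above, the GCAAC and ATTGG letters stood in a gene that fell (H2-Ob) and in 3 that did not pass (H2-Oa, H2-Aa and H2-Eb1), and H2-DMa, which fell, held them in neither of its windows. H2-Ab1, which also fell, had no window, and Cd74 was not read, so a relation to the array values was not tested. The genes whose pattern was most like the class II chains were sought among 1366 genes with an SD of 0.5 log2 or more over the 8 arrays. The likeness was Pearson's r over the 8 arrays to the mean-centred average of H2-Aa, H2-Ab1 and H2-Eb1, given as a description because the arrays fall into drug and hairpin groups. That average follows H2-Ab1, the one of the 3 with a range of 2.60 log2. The highest were Pank1, a pantothenate kinase (r = 0.970), Agpat3, an acyltransferase of phospholipid synthesis (0.970), Ptges3l (0.969), Macrod1 (0.956) and Tmem107 (0.949). The most opposite were the neutrophil genes Camp (-0.970) and Stfa2l1 (-0.968), and Mcemp1 (-0.966).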

How the data were processed

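Total RNA of 8 samples was measured on 1 Affymetrix array each. Intensity values were deposited, and the submitters' processing notes name RMA as their source without a version; their range shows a linear scale. Neither the chip definition nor whether the arrays were processed jointly is stated. RMA draws low signals together, so differences of dim genes may be understated. The lower quartile over all genes lay between 4.22 and 4.34 on the 8 arrays. Whether probe sets near or below it read transcript or background was not tested. Log2 was taken with no pseudocount or further normalization. Of 45101 probe sets 64 controls were left out, 34945 had 1 gene symbol in the platform annotation, 932 several and 9160 none, and each of 18193 genes took its one-symbol probe set with the highest mean.

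The test was limma (version 3.58.1, R version 4.3.3) on a model of 4 group means over all 8 arrays (4 residual degrees of freedom), in 6 comparisons, two-sided, at a Benjamini-Hochberg adjusted p under 0.05 over all genes. The members, lists and rule for named genes (all 9 members; of other lists at most the 4 largest passing genes per direction; genes most like the class II chains) were chosen with earlier results of these data known.

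Over genes, deviations from the group mean correlated between EPZ4777 and DMSO arrays of a code at 0.293 (shLUC) and 0.378 (shSirt1), 1 value per arm because 2 codes mirror each other; between codes A4 and A1 the value was 0.401 in EPZ4777 and 0.040 in DMSO. A pairing by code is known only from the titles. The test was checked on simulated data (shLUC comparison, 10 draws, 200 of 18193 genes changed): among changes of 0.5, 1, 2 and 3 log2 it found 7.6%, 57.6%, 91.2% and 96.2%, and 4.58% of its calls were false. The simulated noise was independent between genes and arrays, without pairing by code, so the false share among the measured calls was not tested. Scripts used Python 3.11.15, numpy 2.4.6, pandas 2.3.3 and, in R, data.table (version 1.17.8). The number of arrays and the dimness of many probe sets limit the precision, and probe sets named x_at, s_at or a_at may cross-hybridise. The alternatives are given in the closing section.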

Additional observations from a re-analysis of the deposited data

Results flagged for a closer look

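H2-Aa is listed because its drug difference had opposite signs in the arms. In cells labelled shSirt1 the EPZ4777 minus DMSO difference was -0.24 in A1 and -0.35 in A5, and in shLUC cells it was 0.20 in A4 and 0.14 in D11. The difference between the arms, cells labelled shSirt1 minus shLUC cells, was -0.47 ± 0.18 (standard error, n = 2 arrays per group) and did not pass (limma adjusted p = 0.711, unadjusted p = 0.0376). Of the 4 probe sets of H2-Aa all 4 gave a negative difference between the arms, but only 2 were higher in EPZ4777 in shLUC cells.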

How the results depend on the processing

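Each array left out in turn, the count of genes of the 9 called lower was 0 to 2 in shLUC cells (1 with all arrays), 0 to 2 in cells labelled shSirt1 (1) and 0 to 3 in the average (3), while the count of all genes called in either direction was 0 to 1031 (724), 0 to 205 (72) and 2 to 2588 (1979). Leaving out either shLUC array in DMSO did not alter the differences themselves in cells labelled shSirt1. It altered the pooled estimate of the spread and its degrees of freedom, on which the calls in those cells also rest. The shLUC count was 0 with probe sets averaged per gene, quantile normalization, only the arrays compared, every probe set by itself, and without both arrays of A1 or of A5. In cells labelled shSirt1 it was 0 with the mean of probe sets, only the arrays compared, and without both arrays of A1 or of A5, and 2 at an adjusted p under 0.10. The averaged count was 1 without both arrays of A1 and 1 without both of A5, and in DMSO the count between hairpins was 1 without both of A5. With only genes above the median level tested, 4 of the 9 were left (H2-Ab1, H2-DMa, H2-Oa and Cd86), the averaged count was 2 because H2-Ob was not tested, and the members' median was -0.60 in the shLUC arm, -1.07 in the arm labelled shSirt1 and -0.83 in the average. With 1 array left out the averaged median was -0.22 to -0.071, and without both A5 arrays -0.255. With the code as a replicate block the counts were 2 in the shLUC arm and 3 in the arm labelled shSirt1, both as a fixed and as a random block, and the average stayed at 3. Under the other alternatives the counts over all genes, in either direction, ran from 402 to 2379 in the shLUC arm, from 0 to 504 in the arm labelled shSirt1 and from 407 to 3718 in the average. The fixed block could not be fitted between hairpins, where codes are nested, and the fit on only the arrays compared was not run for the average or the difference of the arms.

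Signs turned only in results below the threshold, and the cause was not tested. In shLUC cells H2-Eb1 turned to -0.020 by quantile normalization and -0.085 by centring, and Ciita to -0.019 by centring. The averaged Ciita difference turned to -0.011, -0.031 by the same 2 settings and -0.016 without both A5 arrays, and H2-Eb1 between hairpins in EPZ4777 to 0.038 by centring. The mean of probe sets turned Ciita in cells labelled shSirt1 to 0.053 and the Cd86 difference of the arms to 0.017. Without both A1 arrays, the values in cells labelled shSirt1 were 0.25 for H2-Eb1, 0.17 for H2-Oa, 0.024 for Cd74 and 0.030 for Ciita. The H2-Eb1 values were then 0.25 for the difference of the arms, 0.13 for the average and -0.31 between hairpins in DMSO, where H2-DMa was 0.0025. Without both A5 arrays the Cd86 difference of the arms was 0.075 and H2-Oa between hairpins in DMSO 0.11. With 1 array left out, the ranges that crossed 0 in shLUC cells were -0.13 to 0.14 for H2-Eb1, -0.12 to 0.26 for Ciita and -0.64 to 0.054 for Cd86. In cells labelled shSirt1 they were -0.61 to 0.28 for H2-Eb1, -0.16 to 0.097 for H2-Oa, -0.074 to 0.0011 for Ciita, -0.14 to 0.062 for Cd74 and -1.07 to 0.034 for Cd86. In the average they were -0.077 to 0.11 for Ciita and -0.30 to 0.14 for H2-Eb1. For the difference of the arms they were -0.78 to 0.33 for Cd86, -0.29 to 0.081 for Ciita and -0.62 to 0.27 for H2-Eb1. Between hairpins they were -0.16 to 0.053 for H2-DMa, -0.15 to 0.11 for H2-Oa, -0.31 to 0.58 for H2-Eb1 and -0.30 to 0.022 for Cd74 in DMSO, and -0.99 to 0.13 for H2-Ab1, -0.14 to 0.065 for H2-Eb1 and -0.34 to 0.033 for Ciita in EPZ4777. Omissions of both arrays of a code were chosen after seeing the data.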
